A study of Homo sapiens with 2 samples.

Results

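The KMT2D peaks considered here lie at 7 genes of the BCL2 family, which sets the threshold for mitochondrial apoptosis. They are the peaks whose highest point falls in a fixed window around BCL2, BCL2L1, MCL1, BCL2A1, BCL2L11, PMAIP1 or BBC3. On hg19 the windows run from 60.74 to 61.04 Mb of chromosome 18 for BCL2, from 30.22 to 30.36 Mb of chromosome 20 for BCL2L1, and from 150.5 to 150.6 Mb of chromosome 1 for MCL1. Those for BCL2A1 and BCL2L11 run from 80.2 to 80.32 Mb of chromosome 15 and from 111.83 to 111.98 Mb of chromosome 2. PMAIP1 has 57.52 to 57.62 Mb of chromosome 18, and BBC3 has 47.67 to 47.79 Mb of chromosome 19. Together they span 1.03 Mb and held 36 of the 24824 listed peaks. The windows were not set by peak height. Peaks were counted by position and were not assigned to genes, since each window may also hold neighbouring genes.

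The peaks come from 1 chromatin immunoprecipitation library made with an antibody to the N-terminus of KMT2D in OCI-LY7. This established line comes from a diffuse large B-cell lymphoma of the germinal centre (GCB) subtype, is labelled wild type in genotype, and the labels give no treatment other than formaldehyde fixation. A no-antibody input library of the same line was also made, and its own values were not analysed here. With 1 ChIP library there is no replicate spread and no test, and the sequencing depth is unknown. A stretch with no listed peak can therefore not be called free of KMT2D. Intervals are 95% and cover counting error over peaks only.

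KMT2D (MLL4) methylates histone H3 at lysine 4, above all at enhancers. Its gene is often mutated in B-cell lymphoma. BCL2 family proteins meet at the outer mitochondrial membrane. The anti-apoptotic members BCL2, BCL2L1 (whose long form is BCL-XL), MCL1 and BCL2A1 bind and restrain the pore-forming members BAX and BAK1. The BH3-only members BCL2L11 (BIM), PMAIP1 (NOXA) and BBC3 (PUMA) occupy the groove of the anti-apoptotic proteins and so favour cell death. In germinal centre B cells BCL2 is normally kept low while MCL1 is needed for survival, and BCL2 is a frequent target of translocation in lymphomas of this origin.

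RefSeq promoter sequences of GRCh38.p14, each covering 250 bases before to 50 bases after an annotated start, were matched for 6 of the 7 genes. No entry was matched for MCL1. They show how different the starts are in sequence. CpG dinucleotides, in capitals, numbered 42 in the PMAIP1 promoter, 39 in that of BCL2L11 and 31 in that of BCL2. The 2 annotated starts of BCL2L1 had 20 and 16, and the BBC3 and BCL2A1 promoters had 5 and 2. The median over 35116 promoters was 14. Of all promoters, 5.85% had at least as many CpG as PMAIP1 and 89.0% had at least as many as BCL2A1. The promoters with the most and the fewest CpG, and that of BBC3, whose window held the highest median of heights among windows with more than 1 peak, are printed 5′ to 3′. They lie on GRCh38.p14 at chr18:59899746-59900045 (+) for PMAIP1, chr15:79971147-79971446 (-) for BCL2A1 and chr19:47232618-47232917 (-) for BBC3.
PMAIP1: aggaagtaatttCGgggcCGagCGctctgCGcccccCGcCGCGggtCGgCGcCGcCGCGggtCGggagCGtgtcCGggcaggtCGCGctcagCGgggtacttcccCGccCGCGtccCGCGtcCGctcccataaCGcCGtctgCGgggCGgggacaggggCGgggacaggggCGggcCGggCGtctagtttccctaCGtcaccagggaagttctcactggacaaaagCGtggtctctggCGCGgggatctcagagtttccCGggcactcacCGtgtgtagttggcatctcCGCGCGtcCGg
BCL2A1: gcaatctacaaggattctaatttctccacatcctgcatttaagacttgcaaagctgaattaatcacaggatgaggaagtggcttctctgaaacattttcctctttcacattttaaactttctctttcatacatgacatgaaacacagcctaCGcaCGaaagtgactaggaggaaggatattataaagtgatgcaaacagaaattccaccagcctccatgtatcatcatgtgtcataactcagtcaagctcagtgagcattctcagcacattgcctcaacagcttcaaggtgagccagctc
BBC3: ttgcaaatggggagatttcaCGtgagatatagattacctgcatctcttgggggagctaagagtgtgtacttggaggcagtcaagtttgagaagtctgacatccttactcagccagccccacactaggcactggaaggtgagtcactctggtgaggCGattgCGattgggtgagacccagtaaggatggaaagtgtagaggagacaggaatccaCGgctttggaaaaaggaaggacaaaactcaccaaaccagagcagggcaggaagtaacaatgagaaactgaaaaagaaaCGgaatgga
The peaks are on hg19, so none was placed relative to these sequences, and the CpG content is a description of the genes only.

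The windows combined held more KMT2D peaks for their length than the chromosomes at large, but not each of them did. There were 35.0 peaks per Mb (exact Poisson interval 24.5 to 48.4), against 8.44 peaks per Mb over the spans of chromosomes 1 to 22 and X. Peaks covered 2.73% of the bases of the windows, against 0.584% of those spans. By window the lowest densities were 8.33 peaks per Mb at BCL2A1 (0.211 to 46.4) and 13.3 at BCL2 (3.63 to 34.1). The highest was 71.4 at BCL2L1 (34.3 to 131.4). The intervals at BCL2A1, BCL2 and PMAIP1 (30.0, 6.19 to 87.7) hold 8.44. Density also differed between chromosomes. That of chromosome 19, 26.7 peaks per Mb, lay inside the BBC3 interval (23.5 to 120.2). That of chromosome 18, 4.62 peaks per Mb, lay under the PMAIP1 interval. The spans of chromosomes 1 to 22 and X include gene-poor and unassembled stretches, while the windows were drawn around genes. What this adds to the difference in density was not tested. Heights, in the authors' units, had a median of 42.5 (order-statistic interval 29 to 57), against 39 for all 24772 peaks on those chromosomes, which lies inside the interval. The median width was 685 bp (342 to 899 bp), against 609 bp. Of the 36 peaks, 11 (30.6%, exact binomial interval 16.3 to 48.1%) were tall, meaning at or above the upper quartile of height on their own chromosome, against 25.5% of all peaks. Peaks of up to 200 bp numbered 7, against 21.0% of all peaks, and 2 were wider than 2000 bp, against 2.22% of all peaks.

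The BCL2L1 window was the fullest, and its 10 peaks were spread over 77.4 kb. From low to high position their heights were 34, 42, 71, 30, 24, 62, 87, 34, 72 and 48. Of these, 4 were tall for chromosome 20, where the upper quartile was 62. BCL2L1 protects cells against death in many tissues. Its tallest peak, of height 87 at 30296086 to 30297311, was matched or exceeded by 10.3% of the peaks on chromosome 20. The other tall peaks stood at 30310236 to 30312018 (height 72), 30272195 to 30272944 (height 71) and 30293515 to 30293950 (height 62). Windows of the same 140 kb with at least 10 peaks made up 1.80% of all windows tiled over chromosomes 1 to 22 and X, and 3.58% of those on chromosome 20. Among tiled windows with any peak the share was 4.75%. Among the highest-scoring 50% of all peaks 6 of the 10 were left. The genes next to BCL2L1 in RefSeq order are COX4I2 and ID1 on one side and TPX2 and MYLK2 on the other.

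The MCL1 window held the tallest and the widest of the 36 peaks. MCL1 is a short-lived anti-apoptotic protein. From low to high position the heights of its 6 peaks were 29, 114, 50, 20, 88 and 31, so 2 stood well above the other 4. The peak of height 114 lay at 150533334 to 150536448 and was 3114 bp wide, and 2.27% of the peaks on chromosome 1 were as tall. The peak of height 88 lay 16.8 kb above it, highest point to highest point, at 150551216 to 150552641, and was 1425 bp wide. The first 5 peaks formed 1 cluster of 19.99 kb, of which 28.9% was covered. Of all 100 kb windows, 3.52% held at least 6 peaks, and of those on chromosome 1, 4.07% did. Among all 100 kb windows with any peak the share was 11.1%. The count was 3 among the highest-scoring 50% of peaks and 10 when the window was widened by 50 kb on both sides. MCL1 stands between ADAMTSL4 and ENSA in RefSeq order, so the tallest peak cannot be attributed to MCL1 by its position in the window alone.

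The 4 peaks of the BCL2 window were low. BCL2 was the first anti-apoptotic gene of the family to be found, at the breakpoint of a lymphoma translocation. The heights were 24, 19, 19 and 23 from low to high position, each under the chromosome 18 median of 27 and not far above the lowest height listed there, 15. The tallest, at 60805236 to 60806045, was 809 bp wide, and 63.0% of the peaks on chromosome 18 were as tall. The other 3 were 147 to 235 bp wide. The highest points of the first 3 peaks lay within 16.9 kb, and 211.5 kb without a listed peak separated them from the fourth. The last peak before the window ended 422.4 kb below the first. Of all 300 kb windows 23.2% held at least 4 peaks, and of those on chromosome 18, 14.3% did. Among all 300 kb windows with any peak the share was 44.2%. No peak of this window was among the highest-scoring 50% of the list, and none reached a common minimum height of 26. Both cut-offs are list-wide, and peaks on chromosome 18 were low in general. Their median score was 19.0, against 24.4 for all peaks, and 253 of the 359 lay under the list median height of 39. The neighbours of BCL2 in RefSeq order are PHLPP1 and KDSR.

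The BCL2A1 window held 1 peak, of height 57 and 1285 bp, at 80215352 to 80216637. BCL2A1 is an anti-apoptotic gene known as a target of NF-kB in B cells. The peak in the window was above the chromosome 15 median of 43 and under the upper quartile of 62. It stood alone, 25.5 kb from the nearest listed peak on the lower side and 134.8 kb from the nearest on the upper side. Those flanking peaks, outside the window, had heights of 59 and 57. At least 1 peak was present in 35.1% of all 120 kb windows and in 42.0% of those on chromosome 15. The count was 3 after widening the window by 50 kb on both sides and 0 after narrowing it by 20 kb, because the peak lay 16.1 kb from the lower edge. The genes next to BCL2A1 in RefSeq order are MTHFS and ST20-MTHFS on one side and ZFAND6 and FAH on the other. The peak can therefore not be attributed to BCL2A1 by its position in the window alone.

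Among the BH3-only genes, the BBC3 window held the tallest peaks. BBC3 encodes PUMA, which p53 induces after DNA damage. The 7 heights were 94, 81, 55, 43, 75, 69 and 57 from low to high position, all above the list median of 39. Chromosome 19 had taller peaks in general, with a median of 51 and a lowest listed height of 26, and against it 3 of the 7 were tall. They lay at 47729114 to 47730148 (height 94), 47730300 to 47731404 (height 81) and 47747190 to 47747849 (height 75). The first 2 were only 0.152 kb apart. The first 6 peaks formed a cluster of 31.6 kb, and 9.55% of the 4962 clusters of the list had at least 6 peaks. At least 7 peaks were held by 3.36% of all 120 kb windows but by 15.5% of those on chromosome 19. Among all windows of that length with any peak the share was 9.59%. All 7 peaks were among the highest-scoring 50% of the list, a list-wide cut-off. The median score was 28.1 on chromosome 19 against 24.4 for all peaks. The count was 5 after peaks under 500 bp apart were merged. SAE1 and CCDC9 flank BBC3 in RefSeq order.

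The BCL2L11 window held 1 tall and broad peak among low ones. BCL2L11 encodes BIM, which is needed to remove autoreactive lymphocytes. The heights of its 5 peaks were 20, 19, 62, 29 and 25 from low to high position, against a chromosome 2 median of 36. The peak of height 62, at 111877412 to 111879481, was 2069 bp wide, and 21.4% of the peaks on chromosome 2 were as tall. It ended 0.144 kb from the next peak, which was 1207 bp wide, and with the 2 peaks below it they covered 59.2% of a cluster of 6.08 kb. The fifth peak stood 33.7 kb above the cluster, and the next listed peak was 513.1 kb farther on. At least 5 peaks were found in 8.51% of all 150 kb windows and in 5.99% of those on chromosome 2. Among all such windows with any peak the share was 21.7%. The count was 1 among the highest-scoring 50% of peaks, 2 at the common minimum height of 26, 3 after peaks under 500 bp apart were merged, and 9 in a window widened by 50 kb on both sides. ACOXL and ANAPC1 are the nearest named protein-coding genes on either side.

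The PMAIP1 window held 3 peaks, of heights 19, 49 and 19 from low to high position. PMAIP1 encodes NOXA, a BH3-only protein that acts mainly on MCL1. The middle peak, at 57566778 to 57567613, was 835 bp wide, stood above the chromosome 18 upper quartile of 41, and was matched or exceeded in height by 17.0% of the peaks on that chromosome. Over the whole list 37.4% of peaks were as tall. A peak of 245 bp lay 0.453 kb above it. The next listed peak was then 2285.6 kb away, and the nearest below the window was 344.4 kb from the first. At least 3 peaks were held by 10.8% of all 100 kb windows and by 5.15% of those on chromosome 18. Among all 100 kb windows with any peak the share was 34.0%, since 68.4% held none. The middle peak alone was left among the highest-scoring 50% of peaks and at the common minimum height of 26. These cut-offs are list-wide, and the median score was 19.0 on chromosome 18 against 24.4 for all peaks. CCBE1 and MC4R are the neighbours in RefSeq order.

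BCL2 and PMAIP1 lie on the same chromosome, so their peaks can be compared without a difference between chromosomes. The PMAIP1 window had 1 peak of height 49 and 2 of height 19, and the BCL2 window had 4 peaks of 19 to 24. The low peaks of both windows overlapped in height, and the tallest PMAIP1 peak lay above every BCL2 peak. The density was 30.0 peaks per Mb (6.19 to 87.7) at PMAIP1 and 13.3 peaks per Mb (3.63 to 34.1) at BCL2. These densities are for unequal lengths, 100 kb at PMAIP1 and 300 kb at BCL2, and depend on where the window ends. With 50 kb added on both sides, PMAIP1 still had 3 peaks and BCL2 had 5.

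**Figure D1:**
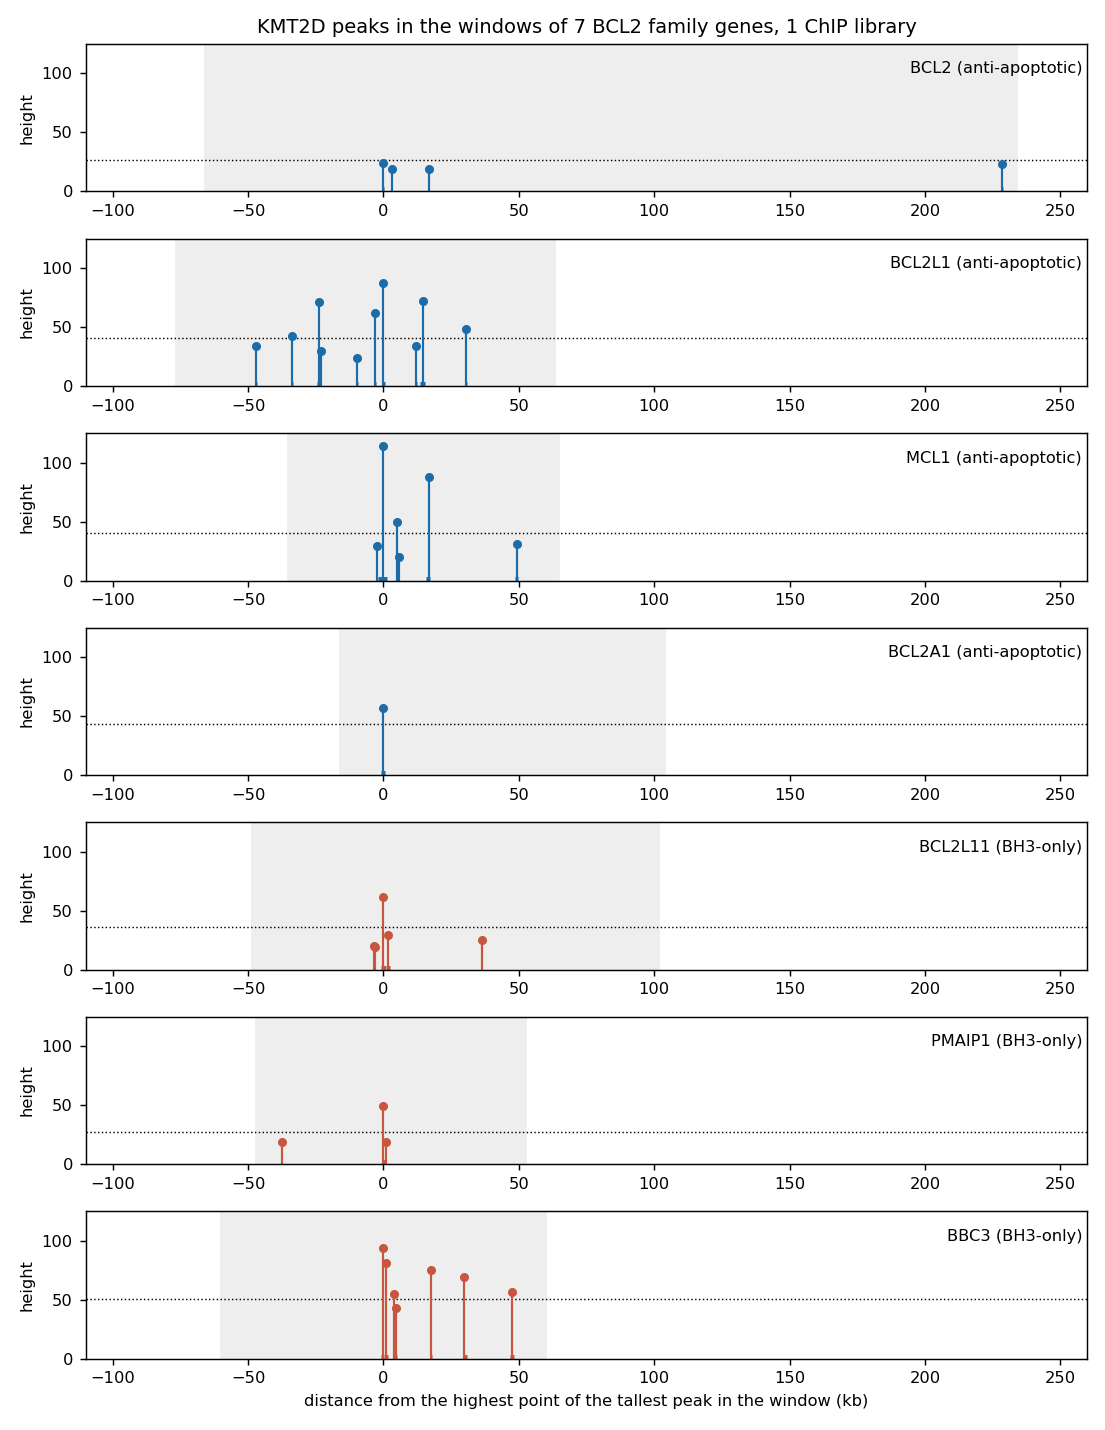
Position and height of each KMT2D peak in the 7 windows. The x axis is the distance in kb from the highest point of the tallest peak of the window, the y axis is the height in the authors' units, bars on the x axis are peak widths, grey marks the window and the dotted line the median height on that chromosome. The 4 BCL2 peaks lie under that line, and 6 of the 7 BBC3 peaks lie above it.

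**Figure D2:**
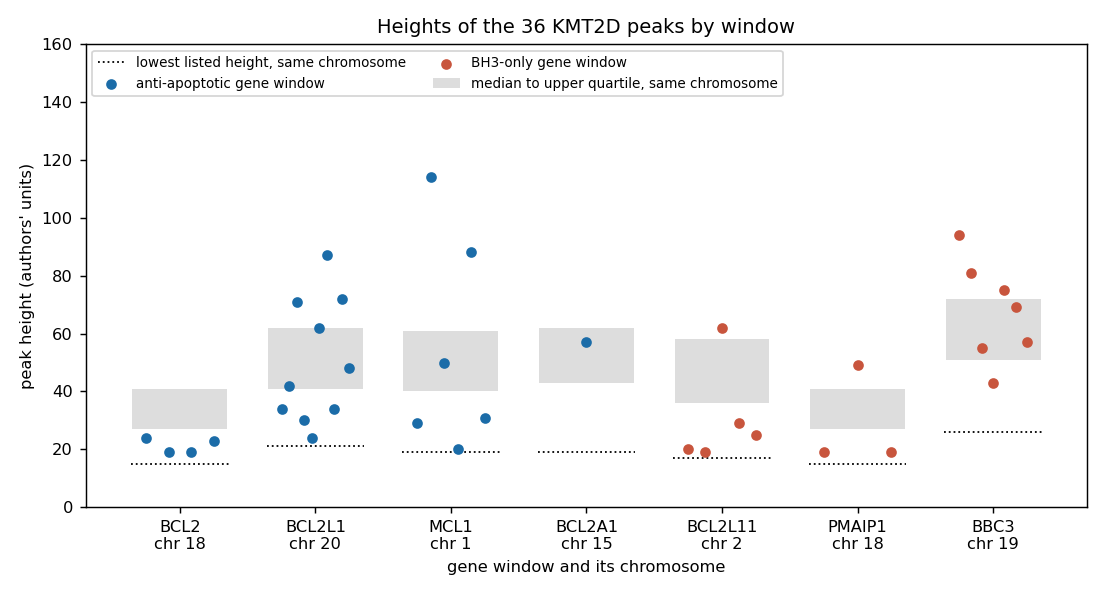
Height of each peak in the authors' units by window, in order of position within a window. Grey boxes run from the median to the upper quartile of all peaks on that chromosome and dotted lines mark the lowest height listed there. The MCL1 peaks of 114 and 88 stand above their box, and the BCL2 peaks lie between the dotted line and the box.

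Taken by role, the 4 anti-apoptotic windows held 21 peaks, or 31.8 per Mb (19.7 to 48.6), and the 3 BH3-only windows held 15, or 40.5 per Mb (22.7 to 66.9). Median heights were 34 (24 to 62) in the anti-apoptotic windows and 49 (20 to 69) in the BH3-only windows. With 1 library, and with most peaks in clusters, these intervals give no test between the roles. Tall peaks numbered 6 of 21 (28.6%, 11.3 to 52.2%) and 5 of 15 (33.3%, 11.8 to 61.6%). Of all peaks 25.5% were tall, which lies inside both intervals. The values of each role lean on single windows. BCL2 made up 300 of the 660 kb of the anti-apoptotic windows but held 4 of the 21 peaks. Window densities ran from 8.33 to 71.4 per Mb among the anti-apoptotic genes and from 30.0 to 58.3 among the BH3-only genes. They depend on the lowest listed height, which was 15 on chromosome 18, 17 on chromosome 2 and 26 on chromosome 19. At the common minimum height of 26, PMAIP1 kept 1 peak, BCL2L11 2 and BBC3 7. The anti-apoptotic windows then kept 0 at BCL2, 9 at BCL2L1, 5 at MCL1 and 1 at BCL2A1. BBC3 gave 7 of the 15 BH3-only peaks, and the median heights at BCL2L11 and PMAIP1 were 25 and 19. The spread inside each role was larger than that between roles. Window medians ran from 21 at BCL2 to 57 at BCL2A1 among the anti-apoptotic genes and from 19 at PMAIP1 to 69 at BBC3 among the BH3-only genes. The BCL2A1 value is 1 peak and the PMAIP1 value rests on 3. BCL2 and PMAIP1 lie on chromosome 18, where the median height was 27, and BBC3 on chromosome 19, where it was 51.

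**Figure D3:**
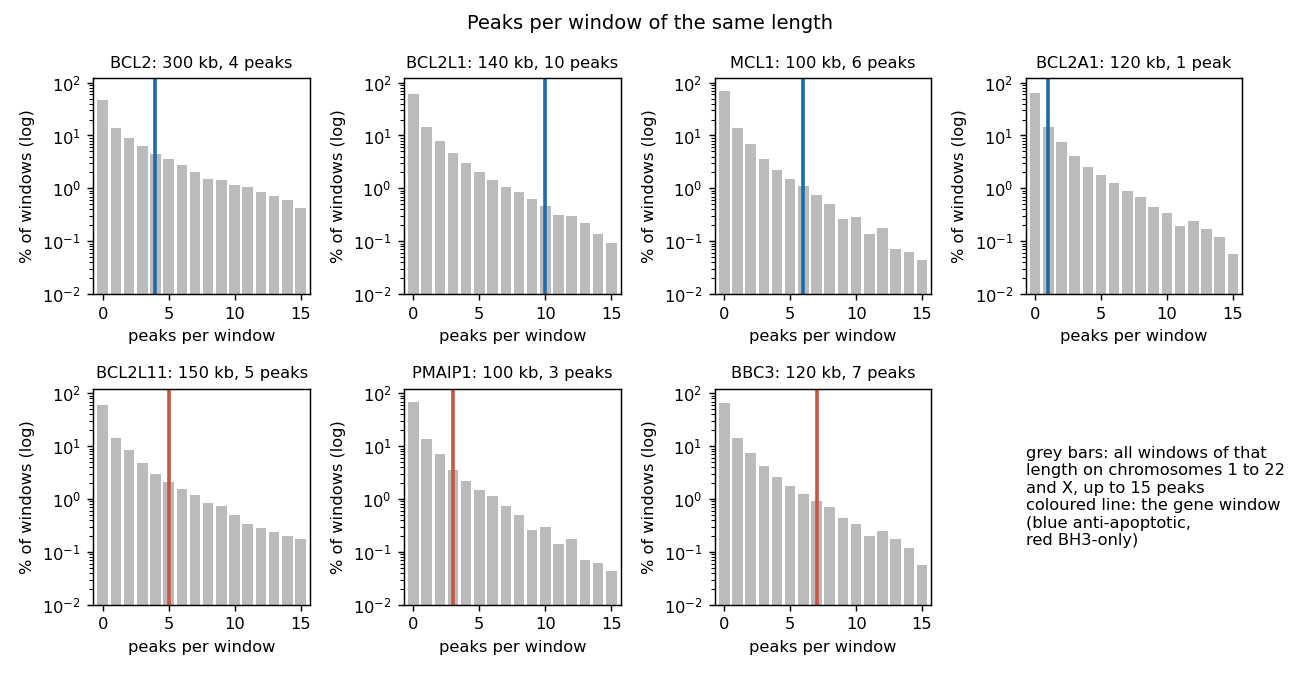
Number of KMT2D peaks in each gene window, drawn as a coloured line, over the distribution of all windows of the same length tiled over chromosomes 1 to 22 and X, drawn as grey bars up to 15 peaks per window. The y axis is the percentage of windows on a log scale. The BCL2L1 line at 10 peaks lies in the thin part of its distribution, and the BCL2A1 line at 1 peak lies beside the bar of empty windows, which made up 64.9%.

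Of the 36 peaks, 27 had near neighbours. After listed peaks with gaps of up to 12500 bp were joined, these 27 (75.0%, exact binomial interval 57.8 to 87.9%) lay in clusters of 2 or more. Over all peaks the share was 63.4%, which lies inside the interval. That interval takes peaks as independent, although peaks of a cluster are counted together, so it does not measure the spread of this share. Among the highest-scoring 50% of peaks the shares were 68.4% in the windows and 36.5% over all peaks. At the common minimum height of 26 they were 76.0% and 54.4%. No interval is given for these cut-offs, and both set the windows farther above all peaks than the full list did. The 27 fell into 7 clusters, and each held only peaks of its own window. BCL2L1 had 2 of them, with 3 and 5 peaks over 10.9 and 25.1 kb. BCL2A1 had none, and the other 5 windows had 1 each. The median distance to the nearest listed peak was 1.64 kb, against 4.66 kb over all peaks. The 9 lone peaks included 2 at BCL2, 2 at BCL2L1 and the BCL2A1 peak.

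Width and height went together among these peaks. The Spearman correlation was 0.79 and the Pearson correlation 0.78 over the 36 peaks, against 0.84 and 0.68 over all peaks. All points come from 1 library and 1 peak calling, and the figures are a description. The highest point lay at a median of 57.6% of the way from start to end, against 46.7% over all peaks, and ran from 13.3% to 93.0%.

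**Figure D4:**
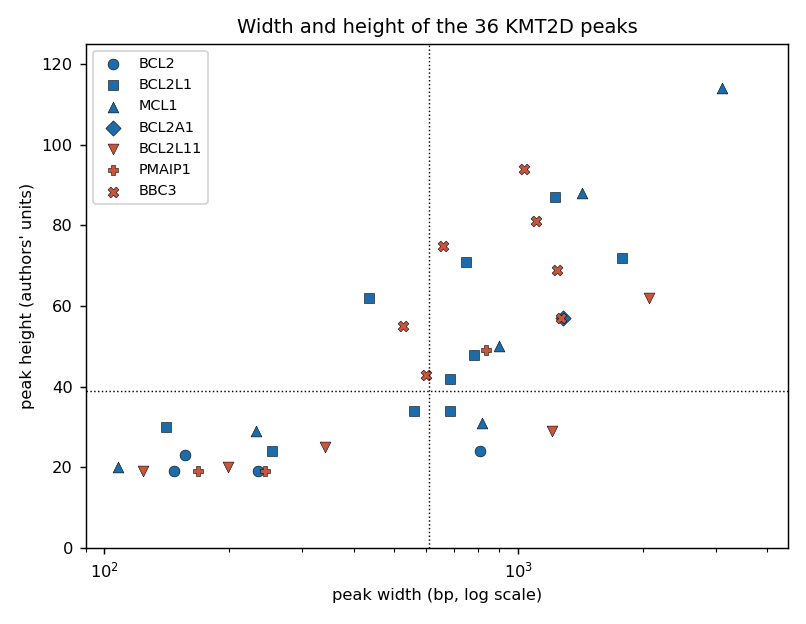
Width in bp on a log scale and height in the authors' units of the 36 KMT2D peaks, with 1 symbol for each gene window, blue for anti-apoptotic and red for BH3-only genes. Dotted lines mark the medians of all peaks, 609 bp and 39. The MCL1 peak of 3114 bp and height 114 stands apart at the upper right.

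The edges of the windows are fixed by the rule and not by a gap between peaks. The first peak inside each edge lay 5.54 to 103.9 kb from it and had a height of 19 to 94, with the single BCL2A1 peak counted at both of its edges. The first peak outside lay 1.90 to 2234.2 kb away and had a height of 18 to 76. The nearest excluded peak lay 1.90 kb above the MCL1 window, at 150601362 to 150602521, with a height of 76. The nearest included one lay 5.54 kb inside the upper edge of the BCL2 window, with a height of 23. Any overlap with the window in place of the highest point gave the same 36 peaks.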

How the data were processed

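One list of peaks of the KMT2D library was used. The authors deposited it with 11 columns and no header, so columns were read from their values. Heights are the authors' deposited signal column, whole numbers whose normalization is not stated. The 2 deposited score columns are a positive score and a significance value that looks like the log10 of a p-value. The deposited percent column places the highest point between start and end. Positions are on hg19 and CASAVA 1.8.2 was used, per the submitters' processing notes. Not given in the sources used here are the aligner, the peak caller with its threshold, how the input entered, and whether positions count from 0 or 1.

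Windows of each gene window's length were tiled without overlap between the outermost peaks of each chromosome. Promoters and gene order come from RefSeq tables of GRCh38.p14, and no coordinate was carried between builds. Other apoptosis genes were not analysed here, because that needs hg19 gene positions. Every window is described, and the peaks printed with position are the tallest of each window and the tall ones. Alternatives were the highest-scoring 50% of peaks, a minimum height of 26, merging under 500 bp, other window edges, another quartile, stitching at 5 and 25 kb, placement by overlap and ranking by score. The members, lists and settings were chosen with earlier results of these data known. No p-value was computed. Functions were tested on simulated data. Python 3.11.15 was used with scipy 1.17.1, numpy 2.4.6, matplotlib 3.10.9 and pandas 2.3.3.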

Additional observations from a re-analysis of the deposited data

How the results depend on the processing

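Values are called moved here if they fall outside the interval of the reported value or, for counts and the covered share, differ from it by over 1.5 times. Of 34 alternative values for the windows together, 29 stayed and 5 moved. With the highest-scoring 50% of peaks the windows held 19 peaks, or 18.4 per Mb, with a median height of 62, which follow from dropping low peaks; all peaks then had a median of 59. A minimum height of 26 gave 24.3 peaks per Mb, for the same reason. Stitching at 25 kb put 88.9% of the peaks in clusters, against 73.7% of all peaks, since a longer distance can only raise that share. Shifting the tiled windows by their midpoint, chosen after seeing the data, moved none of the 7 shares of windows with as many peaks by over 1.5 times, and ranking by score gave the same tallest peak in all 7 windows. Of 56 values for single windows 13 moved. The 56 include these 7 shares and 7 tallest peaks, and all 13 that moved are counts of peaks. No paired analysis was possible because there is 1 ChIP library. Unknown depth limits what the low peaks at BCL2 and the empty stretches can show.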
